A study of Mus musculus with 227 samples.

Results

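Transcripts of 7 S100 calcium-binding proteins (S100a1, S100b, S100a4, S100a6, S100a10, S100a11 and S100a13) were followed through single cells of the newborn mouse skeleton. They were taken by gene symbol from a table of 24388 genes, and all 7 had a row. S100a1 and S100b were treated as cartilage-type members, S100a4, S100a6, S100a10 and S100a11 as fibroblast-type members, and S100a13 as neither. In the data this grouping held in part, but the lists were chosen with earlier results of these data known, so this is not separate support. Among cells with at least 1000 genes at an FPKM of at least 1, S100b was most frequent in mSSC and S100a1 in CSP. In these cells S100a4 and S100a6 were most frequent in THY+ and 6C3+, and S100a10 and S100a11 were detected in most cells of every population. Over all cells S100a10 was detected in 39 of 92 6C3+ and 10 of 26 CSP cells, and S100a11 in 37 of 92 and 12 of 26.

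The cells came from long bones (bone and bone marrow) of BL6 mice at postnatal day 3, sorted by surface antigens and captured one by one on a Fluidigm C1 chip. 6C3+ cells were gated as negative for CD45, Ter-119 and Thy and positive for AlphaV integrin, 6C3 and CD105. THY+ cells were negative for CD45, Ter-119, Tie2 and 6C3 and positive for AlphaV, Thy and CD105. CSP cells were negative for CD45, Ter-119, Tie2, Thy and 6C3 and positive for AlphaV and CD105. The mSSC were negative for CD45, Ter-119, Tie2, Thy, 6C3 and CD105 and positive for AlphaV and CD200. The submitters describe these as stem, progenitor and stromal populations of the skeleton, and no genetic change or treatment is named for any of them. No animal or culture is named either, so each population is 1 sample. Differences between populations were thus not checked against replicates, and no p-value is given.

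S100 proteins are small proteins with a pair of EF-hand calcium-binding loops that mostly work as dimers. On binding calcium most of them expose a surface that grips target proteins such as annexins, myosin heavy chains and receptors. S100B protein is a long-used marker of cartilage and of Schwann cells, and S100a1 and S100b are known targets of the cartilage transcription factors SOX5, SOX6 and SOX9. S100A4 is also called fibroblast-specific protein.

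In the mm10 assembly (GENCODE vM21) 6 of the members lie on chromosome 3 and S100b lies alone on chromosome 10 (chr10:76253853-76261159, plus strand). S100a1 (chr3:90511034-90514392, minus strand) and S100a13 (chr3:90514435-90524581, plus strand) point away from each other. S100a4 (chr3:90603771-90606045) and S100a6 (chr3:90612882-90624181) lie 6.84 kb apart on the plus strand, and these 4 genes fit in 113.1 kb. S100a11 (chr3:93520488-93526287) and S100a10 (chr3:93555080-93564643), both on the plus strand and 28.8 kb apart, begin 2.9 Mb beyond the end of S100a6. Of the exonic bases of S100a4, 302 of 584 (51.7%) are shared with Gm42674, a gene model on the same strand that has no row in the table, so reads could belong to either. S100b lies over Dip2a on the opposite strand but shares 0 exonic bases with it.

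The start regions are shown because neighbours in this cluster had different patterns across the populations. The sequences are RefSeq's on GRCm38.p6, the plus strand is shown, and each ends before the first annotated base of its gene. Of the 7 members, 6 matched an entry in the promoter table, and S100a10 is named only. Capitals mark matches, on either strand, to CCAAT (reverse complement ATTGG), to TATAAA or to GGGCGG. The SOX core motifs ACAAAG and ACAATG were searched on both strands as well. The first stretch is the 42 bases between the starts of S100a1 and S100a13, chr3:90514393-90514434, and the others lie upstream of S100b at chr10:76253586-76253835, S100a6 at chr3:90612644-90612881, S100a4 at chr3:90603520-90603769 and S100a11 at chr3:93520246-93520487.
Between S100a1 and S100a13: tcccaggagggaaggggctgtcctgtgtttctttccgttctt
Upstream of S100b: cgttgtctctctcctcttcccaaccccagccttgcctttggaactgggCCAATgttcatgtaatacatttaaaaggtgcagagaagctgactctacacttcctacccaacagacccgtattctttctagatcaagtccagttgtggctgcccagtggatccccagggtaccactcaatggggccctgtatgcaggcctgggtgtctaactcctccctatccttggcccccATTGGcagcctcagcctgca
Upstream of S100a6: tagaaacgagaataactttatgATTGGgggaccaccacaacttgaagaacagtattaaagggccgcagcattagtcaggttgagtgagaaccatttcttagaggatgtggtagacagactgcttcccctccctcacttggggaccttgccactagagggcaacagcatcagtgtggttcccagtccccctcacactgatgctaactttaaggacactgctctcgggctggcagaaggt
Upstream of S100a4: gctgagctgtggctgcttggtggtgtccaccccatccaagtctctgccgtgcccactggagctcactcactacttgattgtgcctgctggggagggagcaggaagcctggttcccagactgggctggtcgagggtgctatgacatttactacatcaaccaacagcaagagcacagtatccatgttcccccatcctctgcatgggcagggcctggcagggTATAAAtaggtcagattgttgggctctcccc
Upstream of S100a11: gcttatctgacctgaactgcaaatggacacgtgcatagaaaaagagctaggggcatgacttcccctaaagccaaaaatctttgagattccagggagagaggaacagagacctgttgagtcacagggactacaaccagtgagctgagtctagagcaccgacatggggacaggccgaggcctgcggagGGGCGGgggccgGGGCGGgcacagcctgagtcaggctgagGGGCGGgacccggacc

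Different motifs did not overlap in these stretches. S100b had 2 CCAAT matches and S100a6 had 1, in the 250 bases before the RefSeq start, and 33.8% of 32851 such windows held at least 1. S100a4 had 1 TATAAA match, found in 12.4% of windows, and S100a11 had 3 GGGCGG matches, found in 32.7% of windows. ACAAAG was found in 16.5% and ACAATG in 10.7% of windows, and in 0 of the 6 member windows. A match is a description of letters and not a site.

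Values are FPKM as the authors deposited them, a measure of fragments per transcript length and library size that allows levels of different genes to be set side by side. A gene was called detected in a cell at an FPKM of at least 1. Cells with at least 1000 detected genes were compared: 34 of 92 6C3+ cells, 43 of 72 THY+ cells, 11 of 26 CSP cells and all 37 mSSC. They had a median of 2639 genes in 6C3+, 2835 in THY+, 3033 in CSP and 2534 in mSSC. Depth in reads is unknown, and a value of 0 is a listing and not proof of absence, since Gapdh, a housekeeping gene, was listed at 0 in 17 of these cells (13.6%). Intervals in parentheses are exact Clopper-Pearson 95% intervals and cover counting error between cells only.

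Plates were inferred from the index names. By these, mSSC and CSP cells were on 1 plate and THY+ and 6C3+ cells on another each. For THY+ and 6C3+ an effect of the plate thus cannot be told apart from one of the population. The median share of FPKM held by ERCC spike-ins was 18.9% in 6C3+ and 20.8% in THY+ cells, against 0.000945% in CSP cells and 0.00117% in mSSC. Of 13 measured chondrocyte markers a median of 9.5 was detected per cell in 6C3+, 5 in THY+, 13 in CSP and 13 in mSSC. Of 10 fibroblast and periosteal markers the median was 6 in 6C3+, 6 in THY+, 3 in CSP and 4 in mSSC. Between 0 and 11 of 11 pericyte and smooth muscle markers were detected per THY+ cell, against 0 to 6 in 6C3+, 1 in CSP and 0 to 10 in mSSC.

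**Figure D1:**
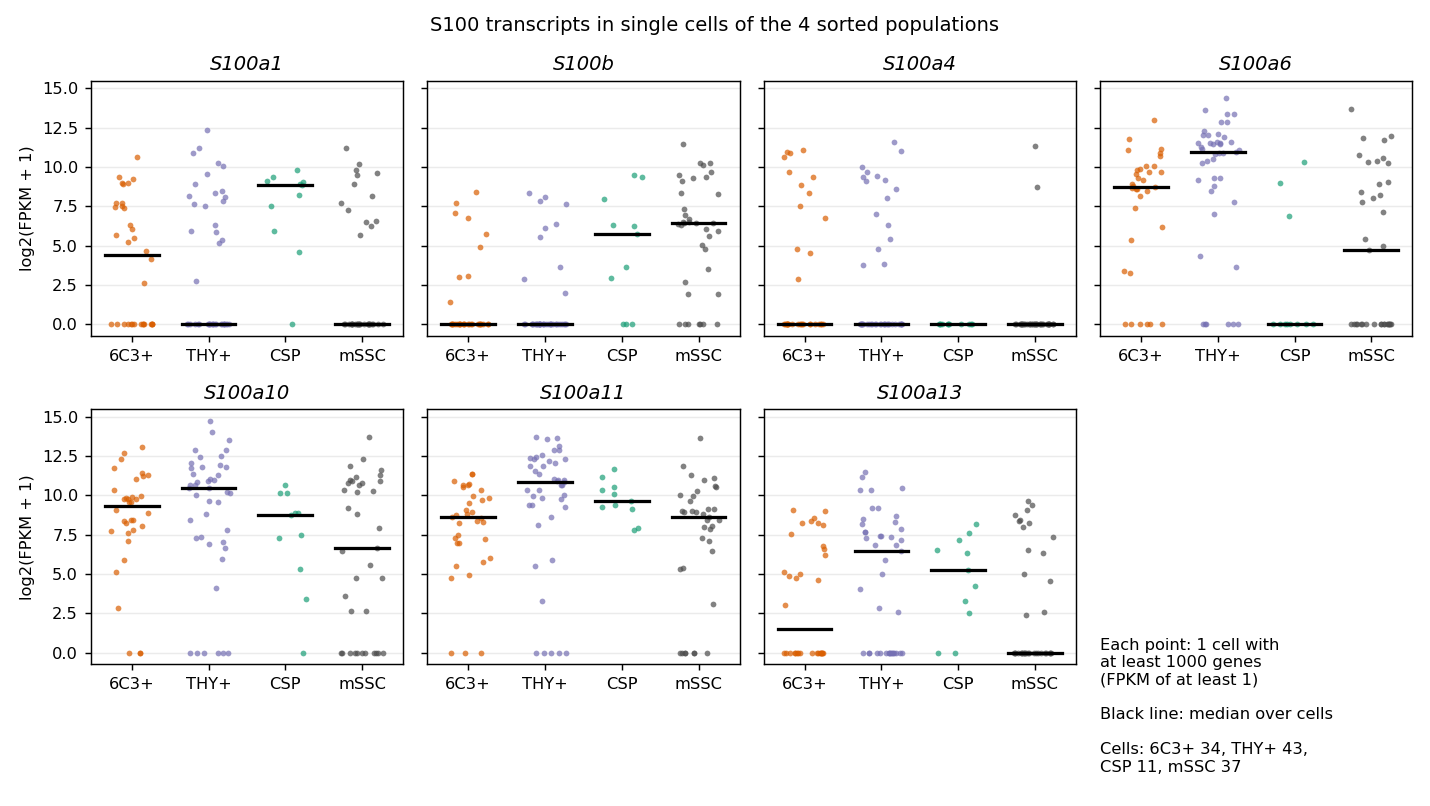
Each point is 1 cell with at least 1000 detected genes (34 6C3+, 43 THY+, 11 CSP, 37 mSSC), the vertical axis is log2(FPKM + 1), and the black line is the median over cells. S100b points are densest above 0 in mSSC, S100a1 has 1 CSP cell at 0, and S100a4 has all 11 CSP cells at 0.

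S100b, which signals inside the cell and also outside it through the receptor RAGE, was detected most often in mSSC. It was detected least often in 6C3+ and THY+ cells, whose shares were close. S100b had a lowest, median and highest FPKM of 0, 0 and 336 in 6C3+, 0, 0 and 317 in THY+, 0, 53.6 and 714.2 in CSP, and 0, 84.1 and 2841 in mSSC. S100b was detected in 9 of 34 6C3+ cells (26.5%, 12.9 to 44.4), 10 of 43 THY+ cells (23.3%, 11.8 to 38.6), 8 of 11 CSP cells (72.7%, 39 to 94) and 30 of 37 mSSC (81.1%, 64.8 to 92). Single cells of all 4 populations overlapped, but most 6C3+ and THY+ cells were at 0 and most CSP and mSSC cells were not. The intervals of 6C3+ and THY+ lay below that of mSSC, those of CSP and mSSC overlapped, and those of 6C3+ and CSP overlapped narrowly.

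The mean log2(FPKM + 1) of S100b was 1.41 in 6C3+, 1.36 in THY+, 4.70 in CSP and 5.65 in mSSC. That placed 6C3+ lower than mSSC by a difference of -4.24, THY+ lower by -4.30 and CSP lower by -0.95. Differences of this kind are of mean log2(FPKM + 1), and they understate the change of low genes. Among detecting cells alone the median FPKM of S100b was 51.7 in 6C3+, 74.3 in THY+, 77.1 in CSP and 90.8 in mSSC, a narrower range than that of the shares.

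S100a1, a calcium sensor best known for binding ryanodine receptors in muscle, did not follow S100b. Its lowest, median and highest FPKM were 0, 20.3 and 1617 in 6C3+, 0, 0 and 5306 in THY+, 0, 467 and 911 in CSP, and 0, 0 and 2337 in mSSC. It was detected in 19 of 34 6C3+ cells (55.9%, 37.9 to 72.8), 20 of 43 THY+ cells (46.5%, 31.2 to 62.3), 10 of 11 CSP cells (90.9%, 58.7 to 99.8) and 13 of 37 mSSC (35.1%, 20.2 to 52.5). CSP cells were nearly all above 0, mSSC were mostly at 0, and these 2 intervals did not overlap, while 6C3+ and THY+ lay between and overlapped both.

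Mean log2(FPKM + 1) of S100a1 was 3.95 in 6C3+, 3.74 in THY+, 7.40 in CSP and 2.90 in mSSC. The difference was 1.05 for 6C3+ minus mSSC, 0.83 for THY+ minus mSSC and 4.50 for CSP minus mSSC. The last is larger than that of any other member in that comparison in these cells. On the log2 of mean FPKM it was 0.93. The 1 CSP cell with S100a1 at 0 was also listed at 0 for Col2a1, the main cartilage collagen, and Sox9, and held an FPKM of 30585 for Col1a1, the bone and fibroblast collagen. The highest Col1a1 value in the other 10 CSP cells was 0.727. This cell was looked up after its values were seen.

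**Figure D2:**
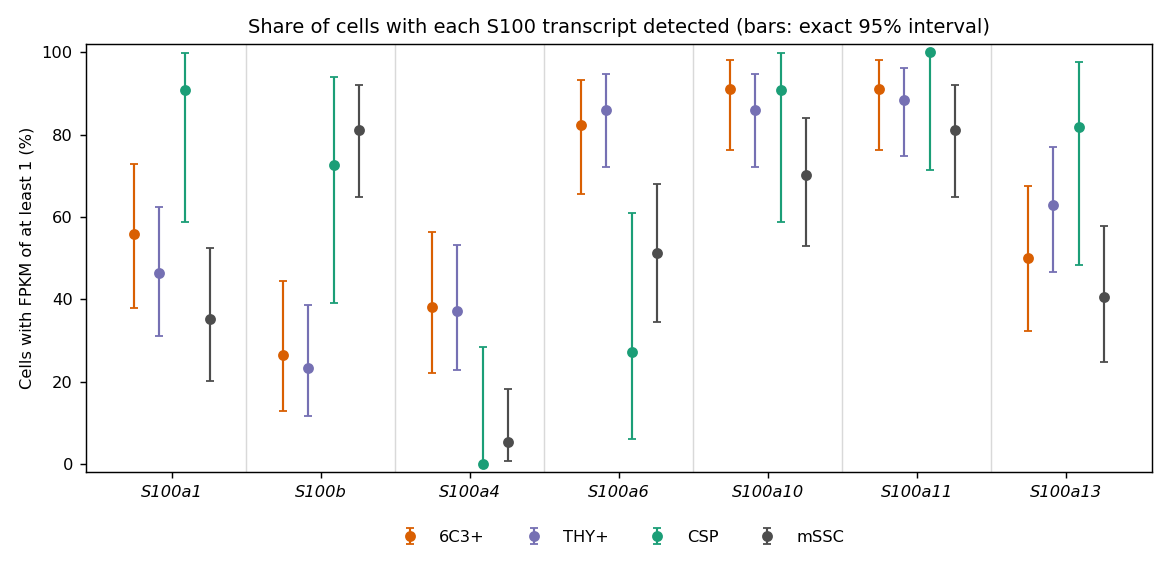
Points give the percent of cells with an FPKM of at least 1 for each member in 6C3+, THY+, CSP and mSSC cells with at least 1000 genes, and bars are exact 95% intervals for counting error. For S100b the CSP and mSSC points (72.7% and 81.1%) stand above 6C3+ and THY+ (26.5% and 23.3%), and for S100a6 6C3+ and THY+ (82.4% and 86%) stand above CSP and mSSC (27.3% and 51.4%).

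S100a4, which binds the heavy chain of nonmuscle myosin and is used as a fibroblast marker, was found almost wholly in 6C3+ and THY+ cells. Its median FPKM was 0 in every population, and the highest was 2152 in 6C3+, 3100 in THY+, 0 in CSP and 2614 in mSSC. It was detected in 13 of 34 6C3+ cells (38.2%, 22.2 to 56.4), 16 of 43 THY+ cells (37.2%, 23 to 53.3), 0 of 11 CSP cells (0 to 28.5) and 2 of 37 mSSC (5.41%, 0.661 to 18.2). The intervals of 6C3+ and THY+ lay above that of mSSC, while with 11 cells the CSP interval overlapped all 3. In the 2 mSSC the values were 418 and 2614 FPKM, and the cell with the higher one was listed at 0 for Col2a1 and had 10562 FPKM of Col1a1, 13151 of S100a6 and 13448 of S100a10. The same cell held the cartilage transcripts Sox9 at 954.8 and Hapln1 at 302.5 FPKM, and S100b at 2.77. The difference of S100a4 was 2.59 for 6C3+ minus mSSC and 2.41 for THY+ minus mSSC. No difference is given for CSP, where it was listed at 0 in all 11 cells. On the log2 of mean FPKM the differences were 1.86 and 1.55, under the 4-fold mark used below.

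S100a6 (calcyclin), which binds the ubiquitin ligase adaptor CacyBP and several annexins, was the member whose mean levels in THY+ and CSP cells lay furthest apart. Its lowest, median and highest FPKM were 0, 426 and 8243 in 6C3+, 0, 1955 and 20912 in THY+, 0, 0 and 1258 in CSP, and 0, 24.9 and 13151 in mSSC. It was detected in 28 of 34 6C3+ cells (82.4%, 65.5 to 93.2), 37 of 43 THY+ cells (86%, 72.1 to 94.7), 3 of 11 CSP cells (27.3%, 6.02 to 61) and 19 of 37 mSSC (51.4%, 34.4 to 68.1). The intervals of 6C3+ and THY+ both lay above that of CSP, and that of THY+ also lay above that of mSSC. The 3 CSP cells that held it had 115.4, 510.9 and 1258 FPKM, and the first of these is the CSP cell with Col1a1 described above.

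Mean log2(FPKM + 1) of S100a6 was 7.36 in 6C3+, 9.24 in THY+, 2.38 in CSP and 4.70 in mSSC. The difference was 2.65 for 6C3+ minus mSSC, 4.53 for THY+ minus mSSC, -2.33 for CSP minus mSSC and -1.88 for 6C3+ minus THY+. On the log2 of mean FPKM the 6C3+ minus mSSC difference was -0.0086 and the THY+ minus mSSC difference 1.76. In cells with 2000 to 3000 genes, of which CSP had 3, the CSP minus mSSC difference had the opposite sign at 1.33.

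S100a10 (p11), a member that no longer binds calcium and pairs with annexin A2 at membranes, was found in most cells of all 4 populations. Its lowest, median and highest FPKM were 0, 648 and 8476 in 6C3+, 0, 1405 and 26975 in THY+, 0, 425 and 1632 in CSP, and 0, 99.2 and 13448 in mSSC. It was detected in 31 of 34 6C3+ cells (91.2%, 76.3 to 98.1), 37 of 43 THY+ cells (86%, 72.1 to 94.7), 10 of 11 CSP cells (90.9%, 58.7 to 99.8) and 26 of 37 mSSC (70.3%, 53 to 84.1), with all intervals overlapping. Its difference was 2.20 for 6C3+ minus mSSC, 2.62 for THY+ minus mSSC and 1.13 for CSP minus mSSC. On the log2 of mean FPKM these were 0.08, 1.22 and -1.28. Among detecting cells the median was 769 in 6C3+, 1645 in THY+, 448 in CSP and 1255 in mSSC, so the median over mSSC that held the transcript was not below that over 6C3+ cells that did.

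S100a11 (calgizzarin), a partner of annexin A1, was the most widely detected member. Its lowest, median and highest FPKM were 0, 387 and 2682 in 6C3+, 0, 1880 and 13647 in THY+, 226, 789 and 3286 in CSP, and 0, 391 and 12705 in mSSC. S100a11 was detected in 31 of 34 6C3+ cells (91.2%, 76.3 to 98.1), 38 of 43 THY+ cells (88.4%, 74.9 to 96.1), 11 of 11 CSP cells (100%, 71.5 to 100) and 30 of 37 mSSC (81.1%, 64.8 to 92), with all intervals overlapping. Mean log2(FPKM + 1) was 7.83 in 6C3+, 9.50 in THY+, 9.72 in CSP and 7.21 in mSSC, so by this measure it was highest in CSP, unlike the other fibroblast-type members, although its median FPKM was highest in THY+.

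The difference of S100a11 was 0.61 for 6C3+ minus mSSC, 2.28 for THY+ minus mSSC, 2.51 for CSP minus mSSC and -1.67 for 6C3+ minus THY+. On the log2 of mean FPKM the THY+ minus mSSC difference was 1.67 and the CSP minus mSSC difference 0.22. The THY+ value went with pericyte and smooth muscle markers. In the 13 THY+ cells with at least 5 of the 11 markers S100a11 was detected in all 13 at a median of 5153 FPKM, against 25 of the 30 others at a median of 961. Without those 13 cells THY+ minus mSSC was 1.16, and without the 9 cells of the first index row of the THY+ plate it was 1.99.

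S100a13, which takes part in the release of FGF1 from cells, was less frequent and showed no clear order. Its lowest, median and highest FPKM were 0, 3.62 and 546 in 6C3+, 0, 87.7 and 2863 in THY+, 0, 36.9 and 289 in CSP, and 0, 0 and 797 in mSSC. Cells with S100a13 were 17 of 34 6C3+ cells (50%, 32.4 to 67.6), 27 of 43 THY+ cells (62.8%, 46.7 to 77), 9 of 11 CSP cells (81.8%, 48.2 to 97.7) and 15 of 37 mSSC (40.5%, 24.8 to 57.9), and all these intervals overlapped. The difference was 0.53 for 6C3+ minus mSSC, 1.97 for THY+ minus mSSC and 1.82 for CSP minus mSSC. In THY+ cells it too went with the pericyte list, at 12 of the 13 cells with at least 5 markers against 15 of the 30 others, and without those 13 cells THY+ minus mSSC was 0.89.

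In the same split of THY+ cells S100a6 had a median of 3097 FPKM in the 13 cells with at least 5 pericyte markers and 1276 in the 30 others, and S100a1 was detected in 9 of 13 and 11 of 30. S100b ran the other way at 1 of 13 and 9 of 30, and S100a4 was detected in 3 of 13 and 13 of 30. S100a10 had a median of 1116 FPKM in the 13 cells and 1731 in the 30 others. Its median was 3521 FPKM in the 9 cells of the first index row against 1086 in the other 34, although the highest value, 26975, lay among the 34. What these markers and index positions contribute to the population differences was not tested beyond leaving the cells out.

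The members were counted past a difference of 2 in either direction, a 4-fold change on the log2(FPKM + 1) scale. All 7 members were among the 7904 genes with an FPKM of at least 1 in 10% or more of these cells, and each comparison was set against those genes. In 6C3+ minus mSSC 3 members (S100a4, S100a6, S100a10) were higher, where 0.746% of all genes tested were, and S100b was lower, where 4.44% were. In THY+ minus mSSC the 4 fibroblast-type members were higher, where 1.92% of all genes were, and S100b was lower, where 3.07% were. In CSP minus mSSC S100a1 and S100a11 were higher, where 3.47% of all genes were, and S100a6 was lower, where 1.87% were. In 6C3+ minus THY+ 0 members were past it in either direction, where 0.228% of genes were higher and 0.987% lower. With a pseudocount of 10 in place of 1, S100a4 (1.56), S100a6 (1.67) and S100a10 (1.44) in 6C3+ minus mSSC, S100a4 (1.42) and S100a10 (1.997) in THY+ minus mSSC, and S100a6 (-1.55) and S100a11 (1.83) in CSP minus mSSC lay inside the mark. The comparisons with mSSC share the same 37 cells. The share over all genes is not matched on level.

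The fibroblast-type members had a median difference of 2.39 in 6C3+ minus mSSC, 2.52 in THY+ minus mSSC and 0.29 in CSP minus mSSC, beside -0.13, 0.12 and -0.01 over all genes tested. The CSP median includes S100a4 listed at 0, and the middle one of the other 3 was S100a10 at 1.13. In 6C3+ minus THY+ it was -1.04, beside -0.26 over all genes. The 2 cartilage-type members had a median of -1.60, -1.73 and 1.77 against mSSC in the same order and 0.14 in 6C3+ minus THY+. These medians lie midway between S100a1 and S100b, which had opposite signs in each comparison with mSSC, so they describe neither gene.

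Rescaling each cell to the same sum of endogenous FPKM moved the median over all genes to 0.25 in 6C3+ minus mSSC, 0.22 in THY+ minus mSSC, 0.11 in CSP minus mSSC and 0.06 in 6C3+ minus THY+. The fibroblast-type median in 6C3+ minus THY+ was -0.025 after it, against -1.04 as deposited. After it every member kept its sign except S100a10 in 6C3+ minus THY+, which was -0.42 as deposited and 0.67 rescaled. S100a13 then passed the mark in THY+ minus mSSC (2.06) and in CSP minus mSSC (2.35). S100a13 in CSP minus mSSC was -0.47 on the log2 of mean FPKM.

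**Figure D3:**
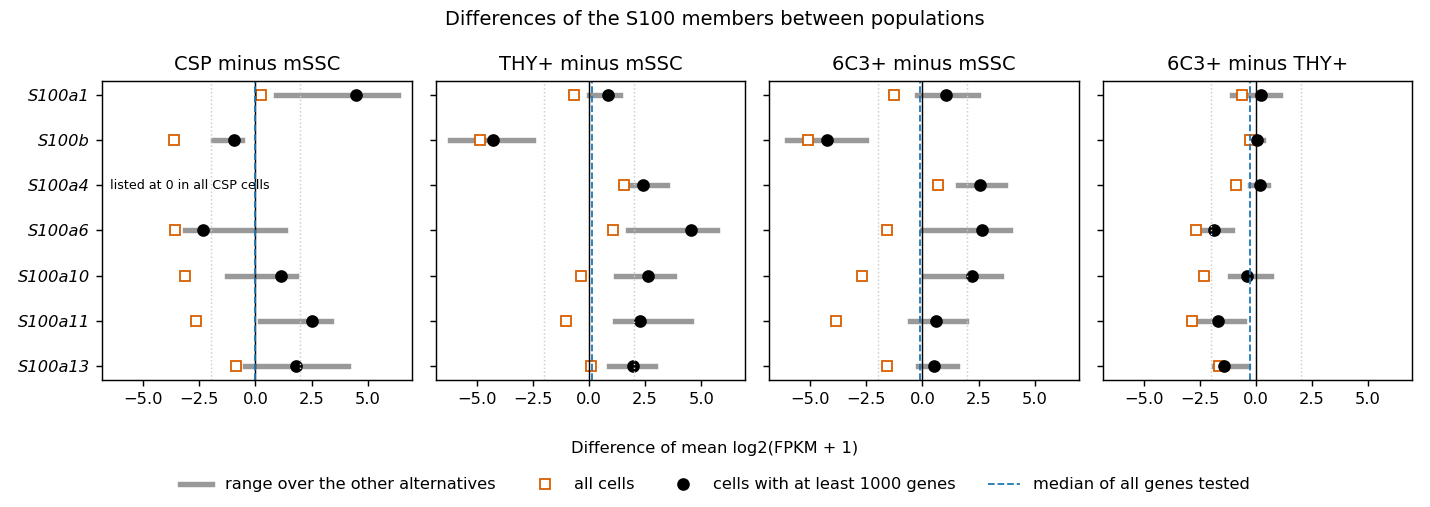
Black points are differences of mean log2(FPKM + 1) for each member in cells with at least 1000 genes, open squares the same over all cells, grey lines the range over the other processing alternatives, the dashed line the median of all genes tested, and dotted lines mark -2 and 2. S100b stays left of -2 in THY+ minus mSSC and 6C3+ minus mSSC, while open squares of S100a10 lie left of 0 in all 4 panels.

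Of 31 cells with S100a4, 30 also held S100a6 (13 of 13 in 6C3+, 15 of 16 in THY+ and 2 of 2 in mSSC). S100a6 was itself detected in 28 of all 34 6C3+ cells, 37 of 43 THY+ cells and 19 of 37 mSSC, so most of this overlap lies where S100a6 was common anyway. All 4 fibroblast-type members were detected together in 13 of 34 6C3+ cells, 13 of 43 THY+ cells, 0 of 11 CSP cells and 2 of 37 mSSC. The number of members per cell had a median of 5 in 6C3+, 4 in THY+, 5 in CSP and 4 in mSSC. Their summed FPKM took a median of 0.556% of endogenous FPKM in 6C3+, 0.895% in THY+, 0.374% in CSP and 0.233% in mSSC, and reached 4.39% in 1 THY+ cell.

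S100b and the fibroblast-type members were not exclusive. S100b was detected with S100a6 in 7 of 9 S100b cells of 6C3+, 9 of 10 of THY+, 2 of 8 of CSP and 15 of 30 of mSSC. It was detected with S100a4 in 8 cells of all 4 populations. S100b and S100a1 were found together in 6 of 34 6C3+ cells, 6 of 43 THY+ cells, 8 of 11 CSP cells and 12 of 37 mSSC. In mSSC 12 of the 13 cells with S100a1 also held S100b, whereas 18 cells held S100b without S100a1. The divergent neighbours S100a1 and S100a13 were both detected in 42 cells, S100a1 alone in 20, S100a13 alone in 26 and neither in 37.

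**Figure D4:**
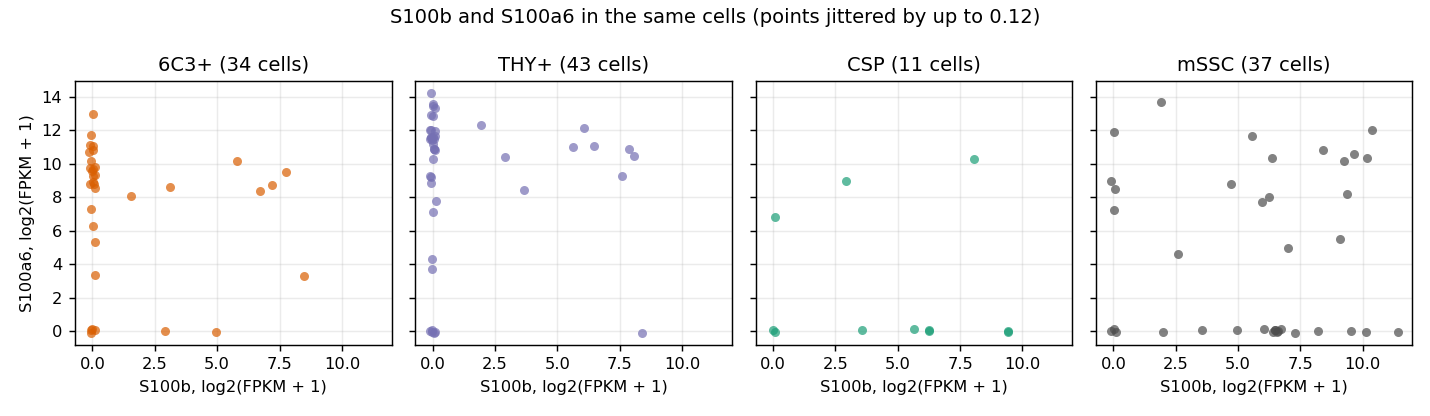
Each point is 1 cell with at least 1000 genes, with log2(FPKM + 1) of S100b across and of S100a6 up, in 1 panel per population, jittered by up to 0.12. THY+ cells crowd the left edge (S100a6 without S100b, 28 of 43), CSP cells the bottom edge (S100b without S100a6, 6 of 11), and 15 of 37 mSSC lie inside with both.

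With each population's mean subtracted, Pearson's r over all these cells (34 6C3+, 43 THY+, 11 CSP and 37 mSSC) was 0.49 for S100a6 and S100a10, 0.45 for S100a10 and S100a11, 0.43 for S100a6 and S100a11, and 0.35 for S100a4 and S100a6. S100a1 and S100b had an r of 0.14, and S100b had r of -0.09 to -0.03 with the 4 fibroblast-type members. These are descriptions over cells that share plates and differ in gene number. The r with the number of detected genes was 0.47 for S100a11, 0.46 for S100a10, 0.38 for S100a6, 0.26 for S100a4, 0.24 for S100a13, 0.21 for S100a1 and 0.10 for S100b, so the members with the higher r among themselves also followed gene number most.

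**Figure D5:**
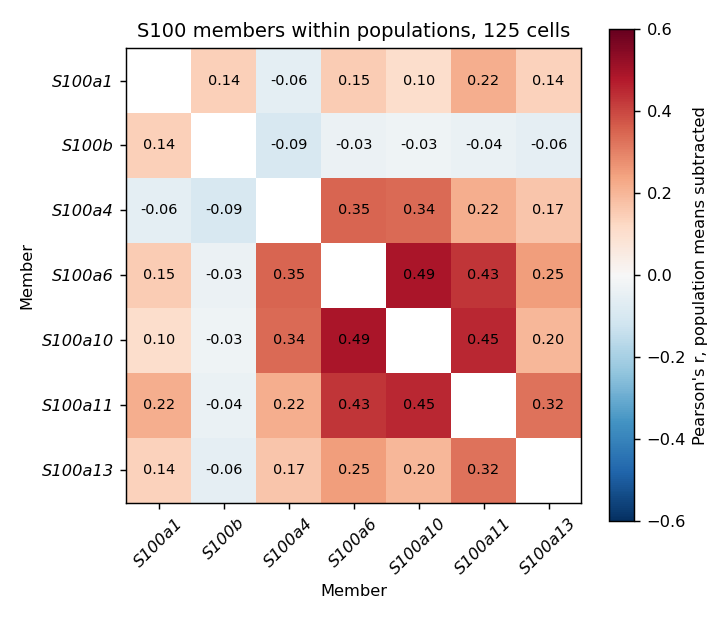
Colour and number give Pearson's r of log2(FPKM + 1) between members over all cells with at least 1000 genes after each population's mean was subtracted. The warm block joins S100a6, S100a10 and S100a11 (0.43 to 0.49), with S100a4 at 0.22 to 0.35, and the S100b row is near 0.

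By the same measure over 7424 named genes, those most like S100b were Hapln1 (r of 0.54) and Lect1 (0.47), which encode a cartilage link protein and chondromodulin, Thbs1 (0.45), which encodes thrombospondin, Scrg1 (0.45), and Col9a2 (0.44), a cartilage collagen. For S100a1 they were Tapbp (0.44), Ndufb8 (0.40), Tm7sf3 (0.40), Scrg1 (0.39) and Dgkd (0.38). For S100a4 they were Tppp3 (0.51), Nbl1 (0.48), Dpysl3 (0.47), Gars (0.46) and Ptn (0.44). Those of S100a6 were Ptrf (0.54), Tmsb4x (0.54), Col6a3 (0.52), Anxa1 (0.50) and S100a10 (0.49). Col6a2 (0.60), which like Col6a3 encodes a chain of collagen VI, was first for S100a10, followed by Plec (0.53) and Tagln2, Lgals1 and Atp5o (0.52 each). For S100a11 they were Actb (0.66), Vim (0.62), Anxa2 (0.62), Dpysl2 (0.57) and Crip1 (0.57), of which Actb and Vim encode cytoskeletal proteins. For S100a13 they were Lgals1 (0.44), Btf3 (0.42), Mtmr2 (0.41), Ndufa7 (0.39) and Rbm3 (0.39).

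Cells with S100b were nearly all cells with Sox9 and Hapln1. Sox9, which encodes the cartilage master factor, was detected in 54 of the 57 S100b cells, and Hapln1 in 54 of 57, with the exceptions in THY+ (3 cells each). The 2 genes were themselves detected in 98 and 88 of all cells compared. Sox9 was detected in 34 of 37 mSSC, 10 of 11 CSP, 30 of 34 6C3+ and 24 of 43 THY+ cells. For Hapln1 this was 34 of 37, 11 of 11, 24 of 34 and 19 of 43. In THY+, 7 of 10 S100b cells held Sox9, and 7 of 10 held Hapln1. The overlap in mSSC and CSP thus lies where both genes were common anyway. Hapln1 was also the named gene most like S100b in these same cells, so its overlap is not separate support. No cell held more than 1 of 6 Schwann and glial markers. Any of them was detected in 1 of 34 6C3+, 3 of 43 THY+, 3 of 11 CSP and 1 of 37 mSSC cells. Of these markers, Mbp and Erbb3 were listed at 0 in every cell, and Sox10 reached an FPKM of 1 in none. Ptprc, the leukocyte antigen CD45, was listed at 0 in every cell, but all 4 populations were sorted as CD45-negative. Any of 8 myeloid markers was detected in 1 6C3+, 3 THY+, 0 CSP and 2 mSSC cells.

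Among 4 cartilage transcription factors Sox9 had a median of 170.7 FPKM in 6C3+, 45.1 in THY+, 464 in CSP and 1270 in mSSC. Its difference was -2.85 for 6C3+ minus mSSC, -4.83 for THY+ minus mSSC and -1.06 for CSP minus mSSC. The mean level of Sox9 was thus highest in mSSC, then CSP, then 6C3+, and lowest in THY+. The S100b mean was also highest in mSSC, then CSP, but nearly equal in 6C3+ (1.41) and THY+ (1.36). For S100a1 the order was CSP, 6C3+, THY+, mSSC. A link of Sox9 to either gene was not tested. Like Sox9, Sox6 was lower past the mark in 6C3+ (-2.20) and THY+ (-2.42), and Sox5 had -1.47 and -2.0, just inside it. Of all genes tested, 4.44% were lower past the mark in 6C3+ minus mSSC and 3.07% in THY+ minus mSSC. Runx2, a factor of hypertrophic cartilage and bone, was higher in CSP minus mSSC (2.19), where 3.47% of all genes tested were. It was detected in 7 of 11 CSP cells and 5 of 37 mSSC. In 6C3+ minus THY+ 0 of the 4 passed the mark, with Sox9 at 1.98. There 0.228% of all genes tested were higher past the mark and 0.987% lower.

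Of 9 annexin and scaffold genes 8 passed the filter on low values. Past the mark, 1 was higher in 6C3+ minus mSSC (0.746% of all genes tested), 3 in THY+ minus mSSC (1.92%) and 2 in CSP minus mSSC (3.47%), and 0 were lower in these comparisons. Anxa1 was the widest, at 2.29 for 6C3+ minus mSSC, 4.84 for THY+ minus mSSC and -0.01 for CSP minus mSSC. Its difference was -2.55 for 6C3+ minus THY+, where 0.987% of all genes tested were lower past the mark. Anxa6 (2.28) and Ahnak (2.29), a scaffold bound by the S100A10 and annexin A2 complex, passed in THY+ minus mSSC, and Anxa7 (2.66) and Anxa11 (2.08) in CSP minus mSSC. Anxa2, the partner of S100a10, was not past the mark in any comparison and was detected in all but 4 of the cells with S100a10. Anxa1 was detected in 76 of the 110 cells with S100a11. By population this was 6 of 11 in CSP, 13 of 30 in mSSC, 23 of 31 in 6C3+ and 34 of 38 in THY+. Among all cells compared it was detected in 6 of 11 CSP, 17 of 37 mSSC, 23 of 34 6C3+ and 37 of 43 THY+ cells. The overlap thus mostly follows how common Anxa1 was in each population.

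Of 14 other partner genes measured, 9 passed the filter, and 1 was past the mark in CSP minus mSSC, where 1.87% of all genes tested were lower. This was Myh9, the nonmuscle myosin heavy chain that S100A4 binds, which was lower in CSP minus mSSC (-2.73). Myh9 had a median of 43.1 FPKM in 6C3+, 137.7 in THY+, 1.8 in CSP and 50.6 in mSSC. S100a4 was listed at 0 in all 11 CSP cells. It was detected in 13 of 34 6C3+ cells and 2 of 37 mSSC, although the Myh9 median was not higher in 6C3+ than in mSSC. A link of Myh9 to S100a4 was not tested. Cacybp (-1.29 in THY+ minus mSSC), Capzb (-1.76 in CSP minus mSSC) and Sept2 (-1.36 in 6C3+ minus mSSC) had their largest differences inside the mark. Syt1, Il1a and Ryr1 were detected in 0 cells. Of 5 receptor genes 2 passed the filter, and each was past the mark in at least 1 comparison. Of all genes tested, 4.44% were lower past the mark in 6C3+ minus mSSC and 3.07% in THY+ minus mSSC. In CSP minus mSSC 3.47% were higher past it. Bsg, which encodes basigin, described as an S100A9 receptor in human cells, was lower in 6C3+ minus mSSC (-2.64) and THY+ minus mSSC (-2.62), and Scarb1, which encodes a scavenger receptor, was higher in CSP minus mSSC (2.60). Ager, which encodes RAGE, was detected in 1 of 34 6C3+ cells and 2 of 43 THY+ cells and in no CSP or mSSC cell. Tlr4 was detected in 3 of 34 6C3+ cells and 5 of 43 THY+ cells and in no CSP or mSSC cell, and Cd36 in 2 THY+ cells.

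Of 10 other S100 genes in the table, S100a16 was detected in 16 of 34 6C3+ cells, 5 of 43 THY+ cells, 2 of 11 CSP cells and 4 of 37 mSSC. Its difference was 2.06 for 6C3+ minus mSSC and 1.74 for 6C3+ minus THY+, where no member was higher past the mark. In 6C3+ minus mSSC 0.746% of all genes tested were higher past the mark. S100a3 was detected in 1 THY+ cell. The other 8 (S100a2, S100a5, S100a7a, S100a8, S100a9, S100a14, S100g and S100z) were detected in 0 of the cells compared. S100a8 and S100a9 are abundant in neutrophils.

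In most cells below 1000 genes each member went undetected. Of 58 6C3+, 29 THY+ and 15 CSP cells of this kind together, S100a10 was detected in 17, S100a6 in 15, S100a11 in 11, S100a4 in 5, S100a1 in 2, S100b in 2 and S100a13 in 1. Of the 29 THY+ cells 9 held S100a10. Single values reached 4415 FPKM for S100a11 in CSP and 2759 for S100a1 in 6C3+. None of the cells below 1000 genes were mSSC. Including these cells turned the difference from mSSC negative for S100a1 (-1.28), S100a6 (-1.57), S100a10 (-2.67), S100a11 (-3.87) and S100a13 (-1.59) in 6C3+. The same happened to S100a1 (-0.67), S100a10 (-0.34) and S100a11 (-1.02) in THY+ and to S100a10 (-3.12), S100a11 (-2.64) and S100a13 (-0.86) in CSP. S100b was lower than mSSC with and without them.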

How the data were processed

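Single cells of 4 sorted populations from BL6 mice at postnatal day 3 were captured on the Fluidigm C1, amplified with SMARTer chemistry and made into Nextera XT libraries, per the labels' protocols. The values are FPKM as deposited by the authors, in 1 table of 24388 genes and 92 ERCC spike-ins for 227 cells. Per the submitters' processing notes SAMtools and the mm10 build were used; the aligner, FPKM program, annotation and strand setting were not given in the sources used here. Whole reads were not recovered from the values. Columns were matched to cells by index names (0 unmatched, 0 identical, 0 index pairs shared). Capture sites were imaged for single live cells, per the labels, and no doublet caller was run.

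Means of log2(FPKM + 1) and shares of cells at an FPKM of at least 1 were computed over cells with at least 1000 genes, with no test, since each population is 1 sample. Genes detected in at least 10% of these cells were the background. Named genes were the 7 members, up to 4 genes of each partner list with the largest absolute difference, and for each member the 5 genes with the highest correlation, leaving out unnamed models, pseudogenes, ribosomal and sex-linked genes; any other named gene was picked after seeing its values. The members and lists were chosen with earlier results of these data known. Software was scipy 1.17.1, pandas 2.3.3, numpy 2.4.6 and matplotlib 3.10.9 under Python 3.11.15.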

Additional observations from a re-analysis of the deposited data

How the results depend on the processing

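With a pseudocount of 0.1 the cartilage-type median became -2.16 in 6C3+ minus mSSC, -2.49 in THY+ minus mSSC and 2.56 in CSP minus mSSC, past the 4-fold mark. Rescaled FPKM gave 2.31 in CSP minus mSSC. The fibroblast-type median was 1.5 with a pseudocount of 10 and 0.035 on the log2 of mean FPKM in 6C3+ minus mSSC, and 1.61 on the log2 of mean FPKM in THY+ minus mSSC. Over all cells the cartilage-type median was -3.20 in 6C3+ minus mSSC and -2.76 in THY+ minus mSSC. Over all cells the fibroblast-type median was -2.12 in 6C3+ minus mSSC and -2.88 in CSP minus mSSC (both reversed in sign), 0.37 in THY+ minus mSSC and -2.49 in 6C3+ minus THY+; the cartilage-type median in CSP minus mSSC also turned, to -1.69. Member differences that reversed in sign and were past the mark on either side were, over all cells, S100a6 (-1.57), S100a10 (-2.67) and S100a11 (-3.87) in 6C3+ minus mSSC, S100a10 (-0.34) and S100a11 (-1.02) in THY+ minus mSSC and S100a10 (-3.12) and S100a11 (-2.64) in CSP minus mSSC. On the log2 of mean FPKM S100a6 in 6C3+ minus mSSC was -0.0086, and at 2000 to 3000 genes S100a6 in CSP minus mSSC was 1.33. All cells include those under 1000 genes, which mSSC lack; the cause of the other changes was not tested. Of all member differences under alternatives, these 9 reversed, 21 moved inside the mark, 21 passed it with the same sign and the rest stayed on their side of it; some inside the mark changed sign. The number of genes past the mark was 410 in 6C3+ minus mSSC, 395 in THY+ minus mSSC and 96 in 6C3+ minus THY+ with or without the filter on low values, and 422 with it and 438 without it in CSP minus mSSC. No paired analysis was possible because the results come from no test and replicate numbers only name cells. With 11 CSP cells, shares of that population have wide intervals.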
